A study of Sus scrofa with 6 samples.

Results

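Mitochondrial ribosomal proteins were described here in 8-cell embryos of the pig (Sus scrofa), as the genes of the deposited transcript table whose symbol is MRPL or MRPS followed by a digit. The rule found 77 of the 29874 genes, in 166 transcript rows. It used names and no measured value. The series holds 3 libraries of whole embryos labelled LncT KD and 3 labelled control. The labels give the injection of siRNA into the cytoplasm as the protocol of all 6, and do not say which siRNA, if any, the control embryos received. The labels identify LncT no further, so its own level was not checked. Nothing in the labels states that libraries of a group came from separate collections of embryos, and p-values therefore speak of the spread among these libraries, which could be technical. The column names of the LncT KD libraries begin with SL and their titles with siL; if SL stood for another siRNA, the comparison would be of that siRNA.

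The mitochondrial ribosome translates the few messenger RNAs that the mitochondrial genome encodes, all for subunits of the respiratory chain and the ATP synthase. Its ribosomal RNAs come from the mitochondrial genome, while all its proteins are encoded in the nucleus, made in the cytosol and imported. The small subunit reads the messenger RNA and the large subunit joins the amino acids and releases the chain at the inner membrane. Part of the proteins descend from bacterial ribosomal proteins and part have no bacterial counterpart. Early cleavage embryos carry mitochondria inherited from the oocyte, and their messenger RNA passes from maternal stores to new transcription in these stages.

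Control 3 stood apart from the other controls before any test. Over the 66 mitochondrial ribosomal protein genes tested, Spearman's correlation between control 1 and control 2 was 0.959, while control 3 had 0.588 with control 1 and 0.629 with control 2. Control 3 had 0.909 to 0.951 with the LncT KD libraries, which had 0.928 to 0.961 among themselves. Over all 10417 genes tested the order was alike, with 0.922 between controls 1 and 2. Control 3 there had 0.611 and 0.655 with controls 1 and 2, and 0.900 to 0.941 with the LncT KD libraries. These correlations are across genes of the same libraries and describe likeness only. Relative depth, read from the ratio of coverage to FPKM (fragments scaled to transcript length and to the mapped fragments of the library), was 6.29 to 9.41 in LncT KD libraries and 6.45 to 7.03 in controls. Genes at 1 FPKM or more numbered 9940 to 10577 in LncT KD libraries and 9237 to 10335 in controls, with control 3 the highest control. All 12 oocyte and early embryo markers were above 0 in every library, and their summed level was 937 to 1371 FPKM in LncT KD libraries and 739 to 1754 FPKM in controls, where control 3 was the lowest. The 12 cumulus and granulosa markers in the table summed to 9.28 to 12.9 FPKM in LncT KD libraries and 8.30 to 9.78 FPKM in controls. Of these, FOXL2 and CYP11A1 were listed at 0 in every library, and FSHR was at 0.0228 FPKM or less in each. AMH, PTX3, CYP19A1, COL1A1 and COL1A2 stayed below 1 FPKM in every library. INHBA, which other cells also express, had 4.34 to 5.66 FPKM in LncT KD libraries and 4.80 to 7.87 FPKM in controls. STAR had 1.12, 0.291 and 2.48 FPKM in LncT KD libraries, against 0.0862, 0.262 and 2.22 FPKM in controls. VIM had 1.24, 0.867 and 1.95 FPKM in LncT KD libraries, against 0.0403, 0.325 and 1.36 FPKM in controls. TNFAIP6 had 1.46 to 1.74 FPKM in LncT KD libraries and 0.0864 to 0.537 FPKM in controls, with no overlap, and the part of such cells in the results was not tested. Comparisons are given with all 6 libraries, and the main counts and list medians also without control 3. Control 3 was singled out by values of these same libraries. The p-values without it are therefore descriptive and give no independent support for a difference between the groups.

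Levels among the members ran over a wide range. The median gene averaged 9.28 FPKM over the 6 libraries. Of the 77 members, 50 belong to the large subunit, 26 to the small subunit, and MRPS36 is now placed in the oxoglutarate dehydrogenase complex in spite of its name. The members above 0 in every library numbered 64, and MRPL43 and MRPL53 were listed at 0 in all of them. An exact 0 in a table of this kind can be a failed estimate, and MRPL43 lies wholly inside TWNK, a mitochondrial helicase gene listed at 25.3 to 38.8 FPKM. Members at 1 FPKM or more numbered 63, 67 and 67 in LncT KD libraries 1 to 3, against 54, 52 and 70 in controls 1 to 3. Controls 1 and 2 had fewer members at that level than any LncT KD library, and control 3 had more.

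**Figure D1:**
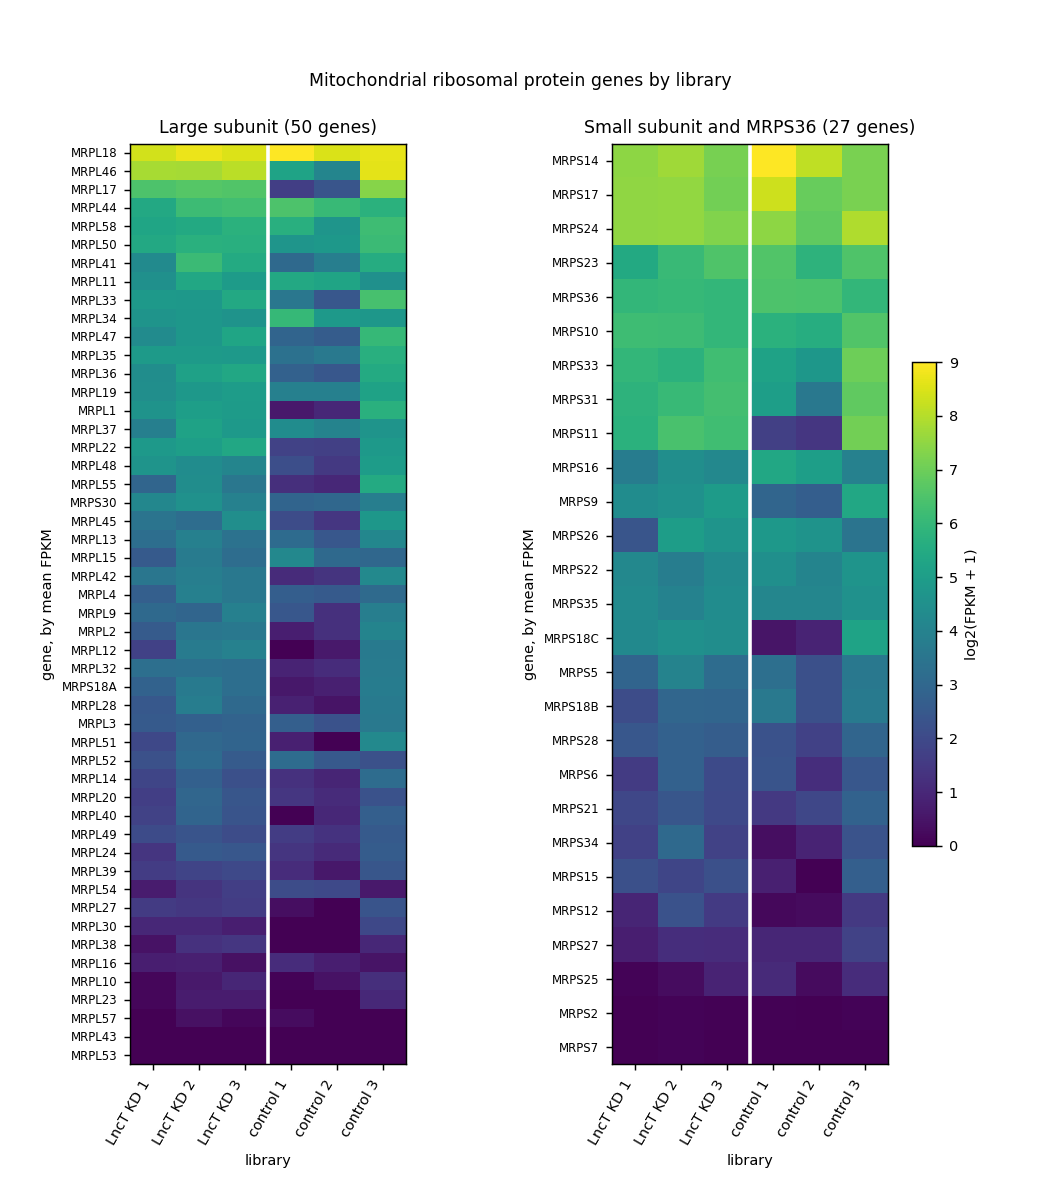
Colour gives log2(FPKM + 1) of each of the 77 genes (down) in each library (across), with the large subunit on the left and the small subunit with MRPS36 on the right, sorted by mean FPKM. Many rows are pale in the 3 LncT KD columns and in control 3 and dark in controls 1 and 2, while the leading rows such as MRPL18 and MRPS24 are pale in all 6 columns.

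The best represented member was MRPL18, which sits in the central protuberance of the large subunit, where the mammalian mitochondrial ribosome holds a transfer RNA in place of a small ribosomal RNA. MRPL18 had 335, 430.1 and 367 FPKM in LncT KD libraries, against 534, 356 and 409 FPKM in controls. Its groups overlapped, and control 3 lay between the other controls. Next in the small subunit was MRPS14, a protein of the subunit's head, with 176, 208 and 142 FPKM in LncT KD libraries, against 504, 280.5 and 143 FPKM in controls. For MRPS14 controls 1 and 2 were above all LncT KD libraries, and control 3 was level with the lowest of them. MRPS17, bound to the ribosomal RNA of the small subunit's body, had 179, 187 and 135 FPKM in LncT KD libraries, against 319, 120.4 and 144 FPKM in controls. MRPS24, at the entry of the messenger RNA, had 182, 183 and 157 FPKM in LncT KD libraries, against 177, 111 and 239.6 FPKM in controls. In both genes the controls reached above and below all LncT KD libraries.

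MRPL46, a central protuberance protein with no bacterial counterpart, had 227, 217 and 266 FPKM in LncT KD libraries, against 35.9, 16.1 and 398 FPKM in controls. The LncT KD libraries lay close together, well above controls 1 and 2 and below control 3. MRPL17, at the exit tunnel for the new chain, had 88.3, 97.0 and 93.6 FPKM in LncT KD libraries, against 2.15, 4.21 and 162 FPKM in controls. It showed the same order of libraries. MRPS23, a small subunit protein with no bacterial counterpart, had 43.1, 66.9 and 91.9 FPKM in LncT KD libraries, against 92.2, 55.1 and 91.1 FPKM in controls. MRPS10, a head protein of the small subunit, had 72.5, 71.1 and 61.1 FPKM in LncT KD libraries, against 52.3, 47.5 and 92.4 FPKM in controls. MRPS23 showed no order of the groups, while for MRPS10 the LncT KD libraries again lay between control 3 and the other controls. MRPL44, which has a fold related to double-strand RNA nucleases, had 42.4, 71.3 and 77.1 FPKM in LncT KD libraries, against 89.8, 66.2 and 52.8 FPKM in controls. MRPL58, also called ICT1, a hydrolase that frees chains from stalled ribosomes and also a large subunit protein, had 38.5, 43.5 and 52.7 FPKM in LncT KD libraries, against 49.7, 24.8 and 72.7 FPKM in controls. In MRPL44 and MRPL58 the groups overlapped throughout.

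Summed over all members, the level was 2173, 2699 and 2540.4 FPKM in LncT KD libraries, against 2447, 1535 and 3304 FPKM in controls. The mean was 2471 ± 269 FPKM in LncT KD libraries and 2429 ± 885 FPKM in controls (SD, n = 3 each), a ratio of 1.02, and 1.24 without control 3. As a share of TPM, which has the same total in every library, the members made up 0.330%, 0.500% and 0.451% in LncT KD libraries, against 0.500%, 0.309% and 0.518% in controls. The sum thus did not set the groups apart, and its lowest and highest FPKM values were both controls. In bulk RNA, a change in part of the cells and a change in all cells cannot be told apart. Values scaled to the library do not show the total amount of RNA.

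The subunits did not share one pattern. The large subunit summed to 1173, 1536 and 1499 FPKM in LncT KD libraries, against 999, 685 and 1956 FPKM in controls. The small subunit summed to 939, 1097 and 981 FPKM in LncT KD libraries, against 1360.0, 764 and 1286 FPKM in controls. The sum of the large over the small subunit was 1.25, 1.40 and 1.53 in LncT KD libraries, against 0.735, 0.897 and 1.52 in controls. Controls 1 and 2 were below all LncT KD libraries in this ratio, and control 3 was within their range. The 10 leading members of a library held 66.1%, 59.9% and 58.4% of the summed FPKM in LncT KD libraries, against 80.5%, 77.7% and 59.3% in controls. Controls 1 and 2 thus had their signal in fewer genes, MRPL18 and MRPS14 first.

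**Figure D2:**
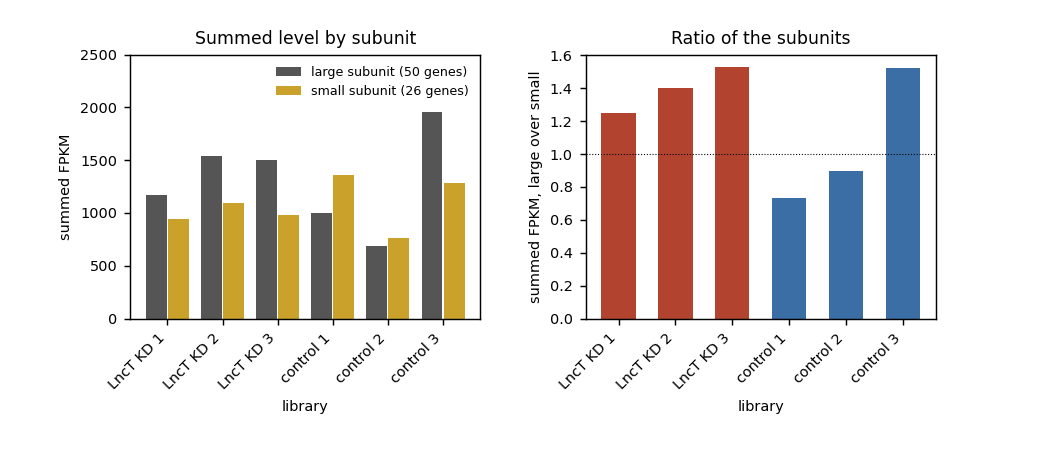
The left panel gives the summed FPKM of the 50 large and 26 small subunit genes in each library, and the right panel the ratio of the sums, with a dotted line at 1. The ratio is 1.25 to 1.53 in the 3 LncT KD libraries and 1.52 in control 3, against 0.735 and 0.897 in controls 1 and 2.

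LncT KD and control embryos were then compared gene by gene with limma on log2(FPKM + 1), fitted across the 10417 genes that averaged 1 FPKM or more, of which 66 were members. The 11 members below that mean were MRPL10, MRPL16, MRPL23, MRPL30, MRPL38, MRPL43, MRPL53, MRPL57, MRPS2, MRPS7 and MRPS25. No gene passed a Benjamini-Hochberg adjusted p of 0.05 with limma, which is a background of 0% in either direction, and no member did. At an unadjusted p under 0.05 limma gave 436 genes, 3.6% of genes tested being higher and 0.586% lower. Among the members 2 of 66, or 3.03%, were higher and 0 lower at that level. The LncT KD and control libraries did not overlap for these same 2 genes, both higher in LncT KD, where 4.38% of all genes tested had no overlap and were higher. No member was lower without overlap, against 2.86% of all genes tested. These shares are near or below the background.

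Those genes were MRPL22 and MRPS30. MRPL22, a protein that lines the exit tunnel, had 28.3, 31.7 and 41.3 FPKM in LncT KD libraries, against 2.42, 2.27 and 27.5 FPKM in controls. Every LncT KD library was above every control, although control 3 came close to the lowest of them. The log2 change was 2.33 ± 0.83 (SE; 95% interval 0.37 to 4.29; limma adjusted p = 0.775). Without control 3 it was 3.36 (limma adjusted p = 0.000245). MRPL22 lies on chromosome 16 (68229725 to 68279103, Sscrofa11.1), and its span holds a pseudogene, LOC100524718, at 9.76, 8.90 and 6.81 FPKM in LncT KD libraries, against 11.9, 12.6 and 7.89 FPKM in controls. How reads were divided between them is not stated, so the level of MRPL22 is uncertain.

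MRPS30, a large subunit protein in spite of its symbol, had 17.0, 22.3 and 14.5 FPKM in LncT KD libraries, against 6.47, 7.13 and 13.3 FPKM in controls. It averaged 17.9 ± 4.02 FPKM in LncT KD libraries and 8.98 ± 3.79 FPKM in controls (SD, n = 3 each). The log2 change was 0.97 ± 0.37 (SE; 95% interval 0.08 to 1.85; limma adjusted p = 0.775). Without control 3 it was 1.26 (limma adjusted p = 0.0146). Control 3 was again the highest control and just under the lowest LncT KD library. MRPS30 lies on chromosome 16 (29110736 to 29200865), and its end overlaps a long non-coding RNA gene, LOC102160325, listed at no more than 1.11 FPKM.

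Over the 66 members the log2 change was above 0 in 47, or 71.2%, and below 0 in 19, where 50.4% of all genes tested were above 0. Their median was 0.46, against 0.005 over all genes tested. It was 0.40 over the 75 members above 0 in any library, with no filter on low values. The median standard error of a single member's change was 0.50. With quantile normalization the median of all genes was −0.17 and that of the members 0.27. With TPM these were −0.10 and 0.51.

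Among the members the spread lay with the controls. The standard deviation of log2 values was larger among controls than among LncT KD libraries in 60 of 66 members, or 90.9%, against 77% of all genes tested. Its median was 0.32 in LncT KD libraries and 0.85 in controls for the members, against 0.30 and 0.57 over all genes tested. Control 3 was above both other controls in 53 of 66 members (80.3%), against 41.6% of all genes tested, and below both in 10 (15.2%), against 47.7%. It was above every LncT KD library in 39 members (59.1%), against 25.5% of all genes tested, and below every one in 3 (4.55%), against 31.9%.

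The outcome of the comparison therefore turned on control 3. Without it, limma passed 2854 genes, 20.2% of those tested being higher in LncT KD embryos and 7.22% lower. In that fit 36 of 66 members passed, 34 higher (51.5%) and 2 lower (3.03%). The median log2 change of the members was then 0.98, against −0.05 over all genes tested. LncT KD libraries did not overlap with the remaining controls in 42 members that were higher, or 63.6%, against 31.3% of all genes tested, and in 5 that were lower, or 7.58%, against 30.5%. A fit that weights libraries by how well they match their group gave control 3 a weight of 0.113 and passed 41 members, 39 higher and 2 lower, where 23.5% of all genes tested were higher and 9.23% lower. The counts of members were 0 when any other single library was left out. What sets control 3 apart was not tested. The labels give no batch. Genes described below as higher or lower without control 3 are those that passed limma's adjusted p in that fit. Since the library left out was chosen by its values, these counts describe the remaining libraries only. The library weights were set by the same values, so the fit with weights gives no independent support either.

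**Figure D3:**
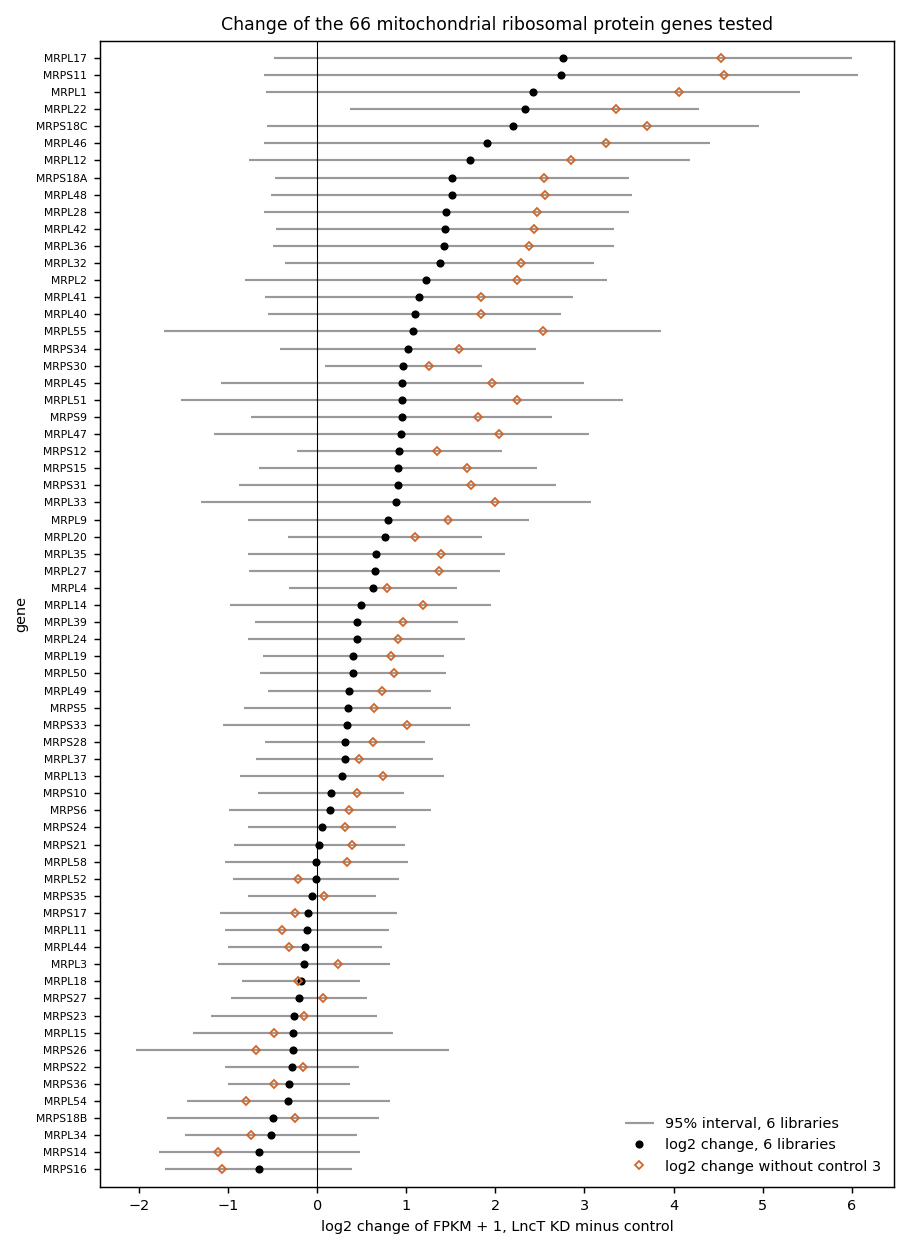
Each of the 66 genes tested is a row, with the log2 change of FPKM + 1 (LncT KD minus control) from all 6 libraries as a black point, its 95% interval as a grey line, and the change without control 3 as an open diamond. The intervals of MRPL22 and MRPS30 lie above 0 and the other intervals cross it, while most diamonds in the upper part of the plot lie to the right of their points.

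The other members with the smallest p-values in the higher direction had values of this kind. MRPS11, of the platform near the exit of the messenger RNA, had 53.1, 84.7 and 74.2 FPKM in LncT KD libraries, against 2.24, 1.71 and 133 FPKM in controls. MRPL1, of the mobile stalk that releases used transfer RNA, had 23.7, 31.8 and 29.8 FPKM in LncT KD libraries, against 0.538, 0.983 and 51.9 FPKM in controls. MRPS12, of the decoding centre, had 0.895, 3.77 and 1.92 FPKM in LncT KD libraries, against 0.134, 0.213 and 1.83 FPKM in controls. All FPKM of MRPS12 sat in a transcript that RefSeq labels non-coding, so the level of its messenger RNA is uncertain. In all 3 genes controls 1 and 2 were below every LncT KD library, and control 3 was above all of them for MRPS11 and MRPL1 and among them for MRPS12. With all 6 libraries the log2 changes were 2.76 for MRPL17, 2.74 for MRPS11, 2.42 for MRPL1 and 0.92 for MRPS12, with a limma adjusted p of 0.775 for each. Without control 3 they were 4.54, 4.57, 4.06 and 1.34, and all 4 genes passed. MRPL1 shares 30336 bases with CNOT6L, a deadenylase subunit gene, and the strand setting of the authors' counting is not stated, so its level is uncertain.

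The 19 members with a log2 change below 0 included 2 that passed as lower without control 3. MRPS16, a small subunit protein with a bacterial counterpart, had 12.6, 21.0 and 17.5 FPKM in LncT KD libraries, against 40.7, 32.3 and 14.7 FPKM in controls. The log2 change was −0.66 for MRPS16 and −0.65 for MRPS14 (limma adjusted p = 0.775 for both). Without control 3 these were −1.07 and −1.12, and they were the members that passed as lower (limma adjusted p = 0.0315 and 0.0356). In both genes control 3 lay within the range of the LncT KD libraries, below the other controls. MRPL34, a short large subunit protein, had 24.3, 26.4 and 23.7 FPKM in LncT KD libraries, against 63.8, 27.8 and 25.8 FPKM in controls, with a log2 change of −0.52. MRPS22, a small subunit protein with no bacterial counterpart, had 17.6, 13.0 and 18.7 FPKM in LncT KD libraries, against 21.1, 15.7 and 24.1 FPKM in controls, with a log2 change of −0.29. MRPS36 had 61.2, 64.9 and 60.6 FPKM in LncT KD libraries, against 88.2, 86.4 and 61.6 FPKM in controls, with a log2 change of −0.32. MRPL34, MRPS22 and MRPS36 passed in no fit named above, with or without control 3. The span of MRPS22 shares 11648 bases with COPB2, a coat protein gene averaging 54.6 FPKM.

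By subunit, 33 of 42 large subunit genes tested lay above 0 in log2 change, and their median was 0.78. In the small subunit 14 of 23 were above 0, with a median of 0.14, which was −0.04 with quantile normalization. Without control 3, 26 large subunit genes were higher and 0 lower, and 8 small subunit genes were higher and 2 lower, where 20.2% of all genes tested were higher and 7.22% lower. The medians were then 1.38 for the large and 0.39 for the small subunit. Within the small subunit, the 9 tested genes with no bacterial counterpart had a median of −0.21, and 3 of them were above 0. That median was 0.06 without control 3. The 14 small subunit genes with a bacterial counterpart had a median of 0.23 (0.53 without control 3), and 11 of them were above 0. In the large subunit the medians were 0.95 for 17 genes with no bacterial counterpart and 0.76 for 25 with one, and without control 3 1.26 and 1.39. This grouping counted MRPS18A and MRPS18B as having no bacterial counterpart, although they descend from the same bacterial protein as MRPS18C. Medians with them moved to the other groups were not computed. The difference between subunits was not tested.

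By region of the ribosome, the medians were 0.94 for 7 genes around the exit tunnel, 1.07 for 7 of the central protuberance and 0.63 for 6 along the path of the messenger RNA. All 6 of the messenger RNA path were above 0, led in level by MRPS24 and MRPS11. Of these 6, 3 passed as higher without control 3, against 20.2% of all genes tested. The genes around the exit tunnel included MRPL45, which ties the ribosome to the inner membrane, with 10.1, 8.32 and 20.6 FPKM in LncT KD libraries, against 3.21, 1.68 and 26.4 FPKM in controls. Without control 3, 5 of the 7 exit tunnel genes and 4 of the 7 central protuberance genes were higher, against 20.2% of all genes tested. The medians were then 1.96 around the exit tunnel, 1.84 in the central protuberance and 0.99 along the messenger RNA path.

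Of the stalk that recruits translation factors only MRPL11 and MRPL12 were tested. MRPL11, at the base of the stalk, had 21.8, 41.3 and 29.4 FPKM in LncT KD libraries, against 41.9, 37.3 and 21.9 FPKM in controls. MRPL12, which forms the flexible stalk, had 2.33, 12.5 and 14.5 FPKM in LncT KD libraries, and 0.523 and 12.1 FPKM in controls 2 and 3, while it was listed at 0 in control 1. The pair thus differed in shape, since control 3 was the lowest control for MRPL11 and the highest for MRPL12. Their log2 changes were −0.12 and 1.71 (limma adjusted p = 0.928 and 0.775). Without control 3 MRPL12 passed and MRPL11 did not; the difference between them was not tested. MRPL10, whose bacterial counterpart anchors the flexible stalk, averaged 0.534 ± 0.424 FPKM in LncT KD libraries and 0.575 ± 0.655 FPKM in controls (SD, n = 3 each) and was under the level for testing.

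MRPS18A, MRPS18B and MRPS18C descend from one bacterial protein and sit at different places, MRPS18A in the large subunit and the other two in the small subunit. MRPS18A had 6.06, 11.7 and 8.48 FPKM in LncT KD libraries, against 0.507, 0.750 and 12.9 FPKM in controls. MRPS18C had 18.4, 22.0 and 20.5 FPKM in LncT KD libraries, against 0.410 and 0.877 in controls 1 and 2 and 36.5 FPKM in control 3. MRPS18B had 3.29, 6.88 and 6.67 FPKM in LncT KD libraries, against 11.6, 3.60 and 11.6 FPKM in controls. MRPS18A and MRPS18C thus had the order of libraries seen for MRPL17, and MRPS18B did not. The log2 changes were 1.51, −0.50 and 2.20 for MRPS18A, MRPS18B and MRPS18C with limma adjusted p values of 0.775, 0.791 and 0.775, and 2.54, −0.26 and 3.71 without control 3. MRPS18A and MRPS18C passed in the fit without control 3. MRPS18C shares its ends with ABRAXAS1 and HELQ, and MRPS18B shares 620 bases with PPP1R10, so these levels are uncertain where reads could be split.

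Transcript rows were compared within genes, since FPKM was summed over them. Of the members, 36 had 1 transcript row and 41 had several, and 10 had at least 2 rows with a mean of 1 FPKM or more. The 3 genes named here are those where the largest share of FPKM sat in different transcripts between the group means. MRPL40, of the central protuberance, had all its FPKM in one transcript in LncT KD libraries (2.41, 6.47 and 4.10 FPKM), while controls 2 and 3 had theirs in another (0.996 and 5.66 FPKM) and control 1 was listed at 0. This was the one gene in which all the FPKM changed transcript between the groups. MRPS33, a small subunit protein with no bacterial counterpart, had 60.9, 53.5 and 74.9 FPKM in LncT KD libraries and 35.7 and 26.2 FPKM in controls 1 and 2, all in one transcript. Control 3 had 127 FPKM, all in a second transcript, so that 67.3% of the FPKM differed in transcript between the group means. MRPL2, close to the site of peptide bond formation, had 4.93, 10.7 and 11.3 FPKM in LncT KD libraries, against 0.699, 1.36 and 15.8 FPKM in controls. LncT KD library 3 and control 1 used one transcript of MRPL2 and the other 4 libraries another, a difference of 38.1% between the group means. The choice between transcripts thus followed the groups in MRPL40 alone of these 3 genes; the accuracy of the assignment to near-identical transcripts was not tested.

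**Figure D4:**
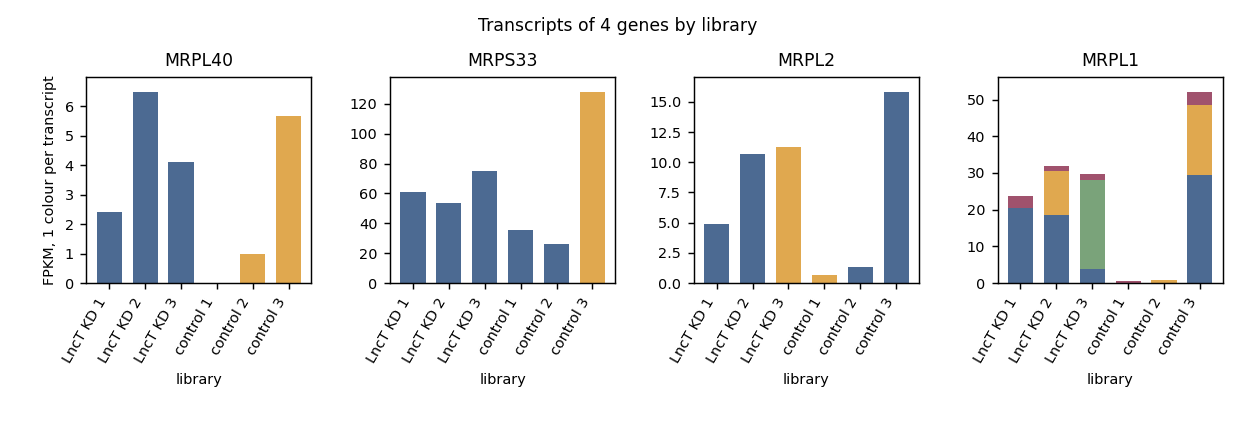
Bars give FPKM per library for MRPL40, MRPS33, MRPL2 and MRPL1, with 1 colour per transcript of the gene. MRPL40 has one colour in the LncT KD libraries and another in controls 2 and 3, MRPS33 has the second colour in control 3 with 127 FPKM, and MRPL1 divides over 4 transcripts in a way that differs among libraries of a group.

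In the genome the members were spread over 17 chromosomes of Sscrofa11.1, with 2 on unplaced sequence. Chromosome 3 held 10 of them (13.0%, against 6.26% of all genes tested), and chromosomes 12 and 2 held 8 each (10.4%, against 4.08% and 7.85%). MRPS11 and MRPL46 are neighbours on chromosome 1, at 191310547 to 191321951 and 191321990 to 191331320, with 38 bases between them. Both had LncT KD libraries between control 3 and the other controls, with log2 changes of 2.74 and 1.91 (4.57 and 3.24 without control 3). The next closest pair, MRPL58 and MRPS7, is 203004 bases apart. Of the 75 members with a placed position, 49 (65.3%) had another gene within 1000 bases, and of those also tested 41 of 65 (63.1%) did, against 53.1% of all genes tested. Spans of 25 members overlapped another gene.

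Genes that work with the mitochondrial ribosome showed mixed values, and none passed in the fit of all 6 libraries. Its 5 proteins with other names were all above 0, with a median log2 change of 0.90. Without control 3 their median was 1.71 and 4 were higher, against 20.2% of all genes tested. Among them PTCD3, which binds RNA on the small subunit, had 7.25, 7.50 and 8.54 FPKM in LncT KD libraries, against 1.69, 1.66 and 13.0 FPKM in controls. CHCHD1, of the small subunit, had 17.0, 26.2 and 32.2 FPKM in LncT KD libraries, against 5.46, 4.99 and 63.6 FPKM in controls. GADD45GIP1, of the large subunit, had 6.46, 7.98 and 7.23 FPKM in LncT KD libraries, against 0.739, 1.41 and 9.87 FPKM in controls. In all 3 genes control 3 was the highest library and controls 1 and 2 the lowest.

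Of 19 assembly factors tested 10 were above 0 and 9 below, with a median of 0.01 (−0.22 with quantile normalization), and without control 3, when the median was 0.50, 6 were higher and 0 lower, against 20.2% and 7.22% of all genes tested. MALSU1, which keeps the unfinished large subunit from joining the small one, had 3.87, 17.5 and 9.66 FPKM in LncT KD libraries, against 0.393, 0.639 and 6.55 FPKM in controls (log2 change 1.93, limma adjusted p = 0.775). MRM3, a methyltransferase of the large ribosomal RNA, had 3.96, 3.56 and 3.72 FPKM in LncT KD libraries, against 1.21, 1.07 and 3.64 FPKM in controls. FASTKD2, an RNA-binding assembly factor, had 19.9, 21.6 and 28.5 FPKM in LncT KD libraries, against 11.2, 19.0 and 19.5 FPKM in controls. Of the 3, FASTKD2 alone had no overlap between the groups, by a margin of 19.9 FPKM in LncT KD library 1 to 19.5 FPKM in control 3. It was the 1 gene of the 19 that was higher without overlap, where 4.38% of all genes tested were.

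Of 12 translation factors tested 7 were above 0 and 5 below, with a median of 0.05 (−0.12 with quantile normalization). Without control 3 the median was 0.32 and 3 were higher, a share near the 20.2% of all genes tested. MTRF1L, a release factor, had 4.14, 7.77 and 5.22 FPKM in LncT KD libraries, against 1.21, 1.31 and 3.38 FPKM in controls (log2 change 1.22, limma adjusted p = 0.775). MRRF, the recycling factor, had 11.3, 17.9 and 18.4 FPKM in LncT KD libraries, against 30.3, 26.1 and 21.1 FPKM in controls (log2 change −0.69, limma adjusted p = 0.775). Neither overlapped between the groups, and they lay on opposite sides. Both were picked from the list for a small p. Of all genes tested, 4.38% were higher without overlap and 2.86% lower without overlap. Of 10 tested genes that load or amend mitochondrial transfer RNA, 4 were above 0 and 6 below, with a median of −0.05. Without control 3 the sign of the median turned, to 0.27 with 6 above 0. In that fit 2 passed as higher, a share near the 20.2% of all genes tested. RARS2, the arginine enzyme, had 73.6, 84.6 and 70.1 FPKM in LncT KD libraries, against 144, 108 and 82.4 FPKM in controls.

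Mitochondrial transcription and RNA processing had 11 genes tested, 5 above 0 and 6 below with a median of −0.04. Without control 3, 7 were above 0 with a median of 0.17, and 4 were higher, against 20.2% of all genes tested. TFAM, which packs the mitochondrial genome and starts its transcription, had 307, 145 and 213 FPKM in LncT KD libraries, against 0.754, 13.3 and 265 FPKM in controls. TFB2M, which opens the promoter, had 25.7, 21.6 and 31.2 FPKM in LncT KD libraries, against 0.168, 0.605 and 35.7 FPKM in controls. KIAA0391, the nuclease that trims transfer RNA, had 23.4, 21.9 and 31.6 FPKM in LncT KD libraries, against 2.70, 1.999 and 24.2 FPKM in controls. In these genes controls 1 and 2 were below every LncT KD library and control 3 was not. Of the regulators of nuclear genes for mitochondrial proteins all 6 tested were above 0, with a median of 1.001. Without control 3 their median was 1.43 and 5 were higher, against 20.2% of all genes tested. NRF1, a transcription factor of such genes, had 4.90, 3.40 and 2.65 FPKM in LncT KD libraries, against 0.103, 1.46 and 2.56 FPKM in controls. The LncT KD libraries of NRF1 were all above the controls (log2 change 1.10, limma adjusted p = 0.775), with the lowest near control 3. Of the 6 tested, NRF1 alone had no overlap, where 4.38% of all genes tested had none and were higher. GABPA had 54.7, 33.2 and 56.2 FPKM in LncT KD libraries, against 23.5, 24.9 and 45.1 FPKM in controls. YY1 had 9.55, 8.02 and 9.59 FPKM in LncT KD libraries, against 1.12, 2.12 and 11.3 FPKM in controls.

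**Figure D5:**
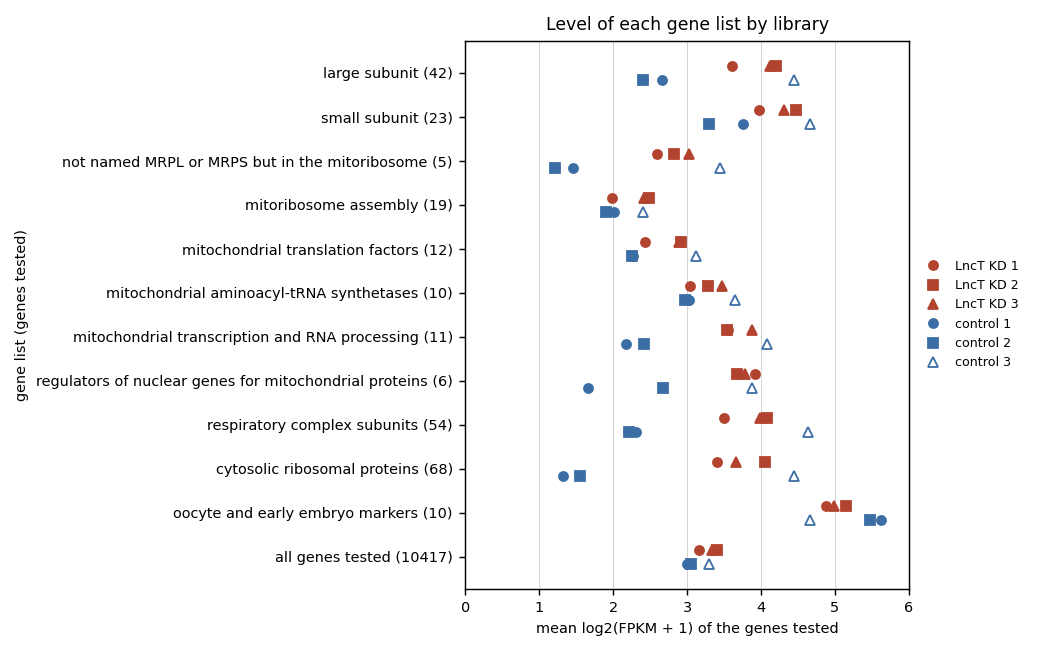
Each row is a gene list, with the number of genes tested, and each mark the mean log2(FPKM + 1) of those genes in one library, LncT KD in red above and controls in blue below, with control 3 as an open triangle. In the large subunit row the LncT KD libraries lie at 3.60 to 4.20 and the controls at 2.40, 2.65 and 4.45, and control 3 is likewise the highest control in every other row but that of the oocyte markers.

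Genes outside the mitochondrial ribosome also passed as higher without control 3. Of cytosolic ribosomal protein genes 65 of 68 tested lay above 0, with a median log2 change of 1.21, and 52 (76.5%) were higher without control 3. Of respiratory complex subunits 42 of 54 were above 0, with a median of 0.71, and 31 (57.4%) were higher without control 3. The wider spread among controls was not particular to the members. It held in 95.6% of the cytosolic ribosomal protein genes and 98.1% of the respiratory genes. Control 3 was above both other controls in 97.1% and 90.7% of them. The differences between these lists and the mitochondrial ribosomal proteins were not tested, and the 20.2% of all genes tested that were higher without control 3 is the background of all 3.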

How the data were processed

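Per the labels' protocols, a SMARTER kit served for the libraries. The tools in the submitters' processing notes are StringTie 2.1.7, Bowtie2 2.3.5 and cutadapt, with the build Sscrofa11.1 and no roles or order. The strand setting, any spliced alignment and the handling of multiply placed reads are not given there. Per the file headers, the table deposited by the authors holds FPKM, TPM and coverage for 81774 transcripts; coverage is a signal of mean read depth, FPKM is scaled for length and mapped fragments, and TPM has one total per library. The ratio of coverage to FPKM gave a relative depth only, so no counting interval is given. A further 9 value columns in 3 sets matched no sample and were not used.

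FPKM was summed per gene. Coordinates are those of RefSeq for Sscrofa11.1, where 29850 of the 29874 genes were found. The 10417 genes averaging 1 FPKM or more over 6 libraries entered limma 3.58.1 (R 4.3.3). The model took log2 values after adding 1 FPKM and had no term but group; variances followed a trend with the mean, tests were two-sided, and the threshold was a Benjamini-Hochberg adjusted p of 0.05 over all these genes. A log2 change is LncT KD minus control on that scale and understates changes of low genes. The fit of 6 libraries was tested on simulated data, with the spread of each gene drawn independently and alike for all 6 libraries. It passed 2% of genes changed by a log2 of 1, 34% at 2, 70% at 3 and 78% at 4, with 2 false calls. The simulation held no library that differed over many genes at once, as control 3 did. These shares therefore do not give the power of the fit on the real values. That no gene passed with all 6 libraries does not show that no gene changed. The lists of pathway and marker genes and the members were chosen with earlier results of these data known. Values in every library are given for members leading in level, in p in each direction, in each ribosome region and in transcript exchange. They are also given for 5 members whose place differs from their name or paralogue. MRPL45 was named outside these rules and is not among the named members followed through the alternatives. Alternatives were other pseudocounts, filters, scalings, library weights, a replicate block, single transcripts and each library left out.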

Additional observations from a re-analysis of the deposited data

How the results depend on the processing

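No gene passed with all 6 libraries under the other pseudocounts, filters and scalings, TPM, no trend or the replicate block, and limma then gave 200 to 1004 genes at an unadjusted p under 0.05. Library weights passed 3405 genes and 41 members; the single leading transcript of each gene passed 9 genes (6 higher, 3 lower) and 0 members; the cause was not tested. Leaving out each library gave 0 to 2854 genes, 0 to 36 members and a median member change of 0.13 to 0.98, the highest of each without control 3. The ratio of summed levels was 0.965 with TPM and 0.859 to 1.24 with a library left out, 0.970 without LncT KD 2 and 0.859 without control 2; the cause was not tested.

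Of the 27 tested members named by the rules above, 18 kept the sign of their change in every alternative that could be fitted and 9 did not. MRPS24 was −0.042 with quantile normalization and −0.073 with TPM. Library weights gave 0.10 for MRPS23, 0.49 for MRPL58 and 0.060 for MRPS18B. With a library left out the ranges were −0.38 to 0.32 for MRPS17, −0.32 to 0.12 for MRPL44, −0.43 to 0.33 for MRPL58, −0.39 to 0.10 for MRPL11, −0.25 to 0.31 for MRPS24, −0.031 to 0.44 for MRPS10, −0.11 to 1.01 for MRPS33 and −0.52 to 0.020 for MRPS23.

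For samples of one replicate number the deviations had correlations of 0.085, 0.063 and 0.226, against −0.189 to 0.111 for samples of other numbers. Only 0.226 lay above that range. The replicate numbers were not taken as pairs in the main fit, and whether they are pairs was not tested. The replicate block passed 0 genes and 0 members, with 747 genes and 5 members at an unadjusted p under 0.05 and the median of 0.46. With 3 libraries per group, the median standard error of a member's change was 0.50, and 0.32 without control 3; without read counts the depth behind each value is unknown.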
